A study of Homo sapiens with 7 samples.

Results

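The 47 genes described here encode chemokines, interleukins, colony-stimulating factors, some of their receptors, the NF-kB subunits and regulators that stand downstream of many of them, and the adhesion molecules ICAM1 and VCAM1. They were chosen by name. Every probe of the array that carries one of these gene names was taken, which gave 67 of the 42405 probes and 47 of the 34809 gene names. Their RNA was measured in ACHN cells, a human renal cell adenocarcinoma line. The cells had been transduced with a pBabe-hygro empty vector (EV, 4 arrays) or with the same vector carrying the long non-coding RNA HOTAIR (3 arrays), so both groups carry the retroviral vector. The comparison asks which of these genes differ when HOTAIR is overexpressed in cells of 1 line. No label says whether the arrays of a group came from separate cultures, so p-values measure the spread between these samples, which may be technical.

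Chemokines are small secreted proteins that draw leukocytes along a gradient through G protein-coupled receptors, and interleukins and colony-stimulating factors tell immune and epithelial cells to grow, mature or respond. IL-1 and TNF act through relay proteins that release NF-kB from its inhibitor, and NF-kB then raises the transcription of many chemokines and of its own inhibitor, NFKBIA. IL-6, IL-11 and LIF act through the shared receptor chain IL6ST and through STAT3. Carcinoma cells of the kidney are known to secrete several of these factors themselves.

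The probe for HOTAIR was well above background on none of the EV arrays, at -6.29, -6.97, -6.42 and -7.07, and was well above background on every HOTAIR array, at -3.12, -3.24 and -2.58. These values, like all levels below, are log2 intensities relative to the 75th percentile of the same array. Well above background is the scanner software's own call. The probe entered the test only through the HOTAIR arrays, and its log2 difference passed the adjustment (limma, adjusted p = 0.00162). By a lower bound that was not itself tested, HOTAIR was at least 4.80-fold higher on the HOTAIR arrays, which fits the labels of all 7 arrays. Markers of epithelial carcinoma cells were well above background on all 7 arrays for 7 of 7 genes, while 4 of 4 fibroblast markers were so on none. Of 4 endothelial markers, 0 were so on all 7 arrays and 2 on none. Over all 7 arrays together, the first principal component held 51.8% of the variance. EV 2 lay far out on it, at 74.0, with HOTAIR 3 next on that side at 21.1 and the other arrays between -29.4 and -8.50. Without EV 2 the sign changed for 7 of the 28 tested member genes, and without EV 2 and HOTAIR 3 for 4. Values without these arrays are given beside some of the results they move.

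Promoter stretches of chemokine genes are shown first, because 5 neighbouring chemokine genes share 1 sequence feature. RefSeq start sites of 35 of the 47 members were in the promoter table of GRCh38.p14. CXCL1, CXCL2, CXCL3, CXCL5 and CXCL6, neighbouring genes on chromosome 4 whose products attract neutrophils, carry the same 11 bases between 78 and 91 bases before the start, a form of the NF-kB consensus. IL6 carries another form of the NF-kB consensus. IL8, the remaining neutrophil-attracting chemokine gene of the list and also on chromosome 4, had no match to the consensus in the bases searched before its start. The NFKBIA match is the reverse complement of GGGAATTTCC, which lies within the bases shared by the CXCL genes. In the stretches below, all 5′ to 3′ on the gene's own strand, capitals mark the match to the consensus.

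CXCL1, chr4:73869289-73869349, plus strand: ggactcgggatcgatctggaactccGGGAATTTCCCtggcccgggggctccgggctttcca

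CXCL2, chr4:74099238-74099298, minus strand: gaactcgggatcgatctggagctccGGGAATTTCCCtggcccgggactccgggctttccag

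CXCL3, chr4:74038733-74038793, minus strand: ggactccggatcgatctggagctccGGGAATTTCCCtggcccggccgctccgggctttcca

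CXCL5, chr4:73998733-73998793, minus strand: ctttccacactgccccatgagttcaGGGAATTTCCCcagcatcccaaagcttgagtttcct

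CXCL6, chr4:73836563-73836623, plus strand: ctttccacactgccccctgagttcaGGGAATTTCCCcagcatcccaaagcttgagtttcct

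IL6, chr7:22727102-22727161, plus strand: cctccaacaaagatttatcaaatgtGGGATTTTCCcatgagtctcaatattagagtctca

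NFKBIA, chr14:35404796-35404855, minus strand: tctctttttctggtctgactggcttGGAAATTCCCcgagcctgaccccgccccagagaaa

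The consensus was searched on both strands in the 250 bases before each start, and overlapping matches were counted as 1. RefSeq lists several starts for 10 of the 35 members, and every listed start was searched. A match lay before at least 1 start in 15 of 35 members (42.9%), against 6.28% of 27305 genes in the table. Counted by start, 16 of 50 member windows held it (32%), against 5.21% of 35116 windows. The form GGGAATTTCC, or its reverse complement, lay in 7 member windows, against 0.142% of all windows. That form was read from the CXCL1 window, so CXCL1 counts among the 7 by construction. The members were chosen by name and include chemokines and NFKBIA, known targets of NF-kB, so these shares describe the list and are not independent evidence about it. A match lay before 10 of the 19 matched members that were well above background on all 7 arrays, 3 of the 12 that were so on no array and 2 of the 4 that were so on some. The printed stretches of CXCL5 and CXCL6 are nearly alike, and CXCL5 was well above background on all 7 arrays and CXCL6 on none.

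Of the 47 members, 27 were well above background on all 7 arrays (57.4%, against 45.1% of all 34809 gene names), 5 on some arrays and 15 on none (31.9%, against 42.1%). The 6 members of the IL-6 family (IL6, IL11, LIF and the receptor genes IL6R, IL6ST and OSMR) were all measured on every array, as were 5 of 6 neutrophil-attracting CXC chemokines, 6 of 7 genes of the TNF and NF-kB group and 2 of 3 colony-stimulating factors. The unmeasured side was as regular. The inflammatory initiators TNF, IL1A, IL1B and IL33 were well above background on none of the arrays, nor were CXCL10 and CXCL11, which attract T cells through CXCR3. The same held for CCL5, CCL26, CSF3, CXCL6, CXCL14 and ICAM1, and for CXCR4, CXCR7 and CCR1, 3 of the 4 chemokine receptors on the list. A probe that is not well above background sets only an upper bound on its RNA.

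**Figure D1:**
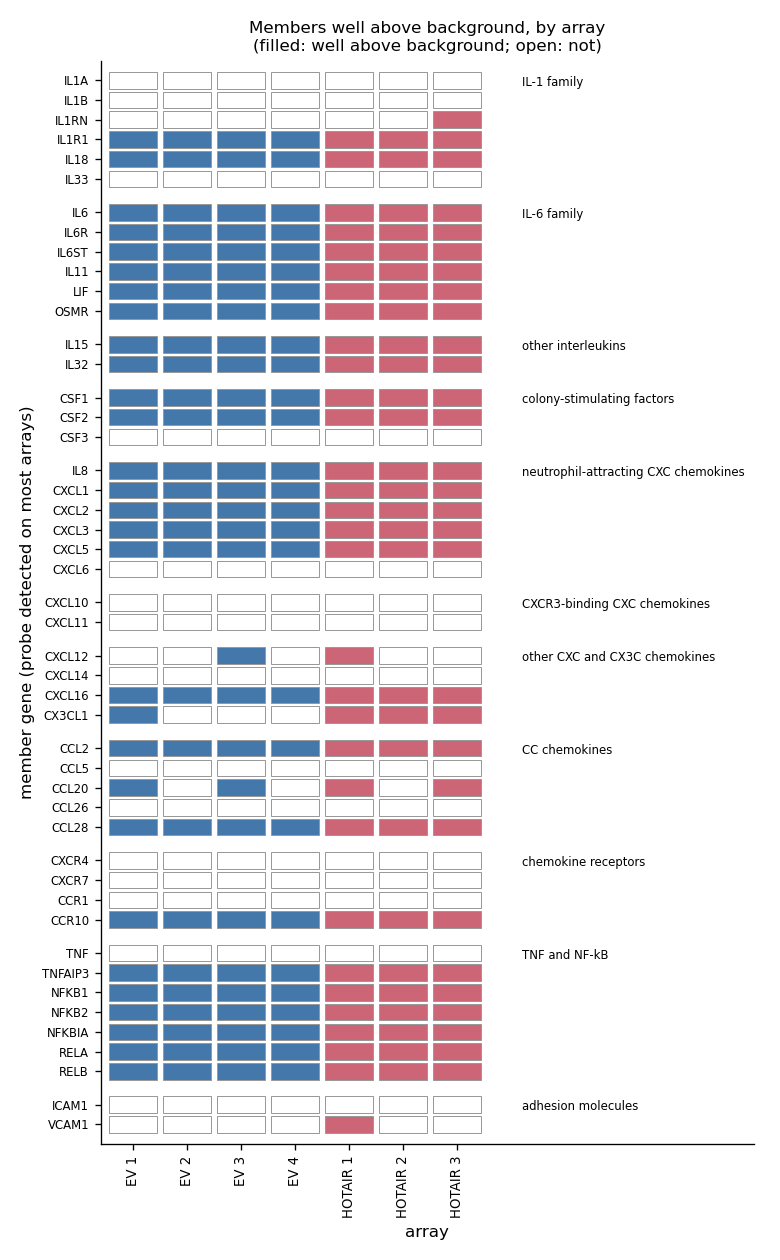
Calls of well above background for the 47 member genes (rows, by role) on the 4 EV and 3 HOTAIR arrays (columns), using for each gene the probe detected on most arrays. Filled boxes, blue for EV and red for HOTAIR, mark a gene well above background, and 27 rows are filled on all 7 arrays and 15 on none.

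The 4 members detected on some arrays and left untested were CCL20, IL1RN, VCAM1 and CXCL12. CCL20, which attracts CCR6-bearing lymphocytes, was well above background on EV 1, EV 3, HOTAIR 1 and HOTAIR 3. VCAM1 was so only on HOTAIR 1 and IL1RN, the natural antagonist of the IL-1 receptor, only on HOTAIR 3. CXCL12 was so on EV 3 and HOTAIR 1. None of the 4 was so on every array of a group. CX3CL1, a membrane-bound chemokine, was well above background on EV 1 and on all 3 HOTAIR arrays and so entered the test.

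No member gene passed the test between HOTAIR and EV, and the shares of members with small p-values or separate groups were near those of all genes. Testing covered the 20419 probes that all EV arrays, all HOTAIR arrays or both called well above background, which held 38 member probes of 28 member genes. By limma with Benjamini-Hochberg adjustment over all of them, 34 probes (0.167%) passed an adjusted p of 0.05, and 0 of the 38 member probes did. At an unadjusted p under 0.05 stood 1 of 28 member genes, against 6.11% of all 16664 tested genes. The HOTAIR and EV arrays did not overlap for 2 of 28 member genes, against 8.05% of all genes. No member probe was called when any single array was left out, and 1 of 38 was called with limma's array weights, which called 1.59% of all tested probes. That probe is described with CCL2 below.

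The differences of the members were small in size. The median log2 difference (HOTAIR minus EV) was 0.028 over the 28 member genes and 0.011 over all tested genes, and the median absolute difference was 0.14 and 0.13. Of the 28, 15 differences were positive and 13 negative. The 95% confidence interval lay within a log2 difference of 1 in either direction for 26 of 28 genes, all but CCL2 and CX3CL1, and within 0.5 for 11. A doubling or halving of RNA therefore lay outside the interval of the brightest probe for those 26 genes, while smaller differences may go undetected with 7 arrays. A dimmer RELA probe had an interval from -0.87 to 1.11, and a dimmer IL6ST probe 1 from -1.16 to 0.88. For RELA and IL6ST the exclusion thus holds for the brightest probe only, not for every probe.

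**Figure D2:**
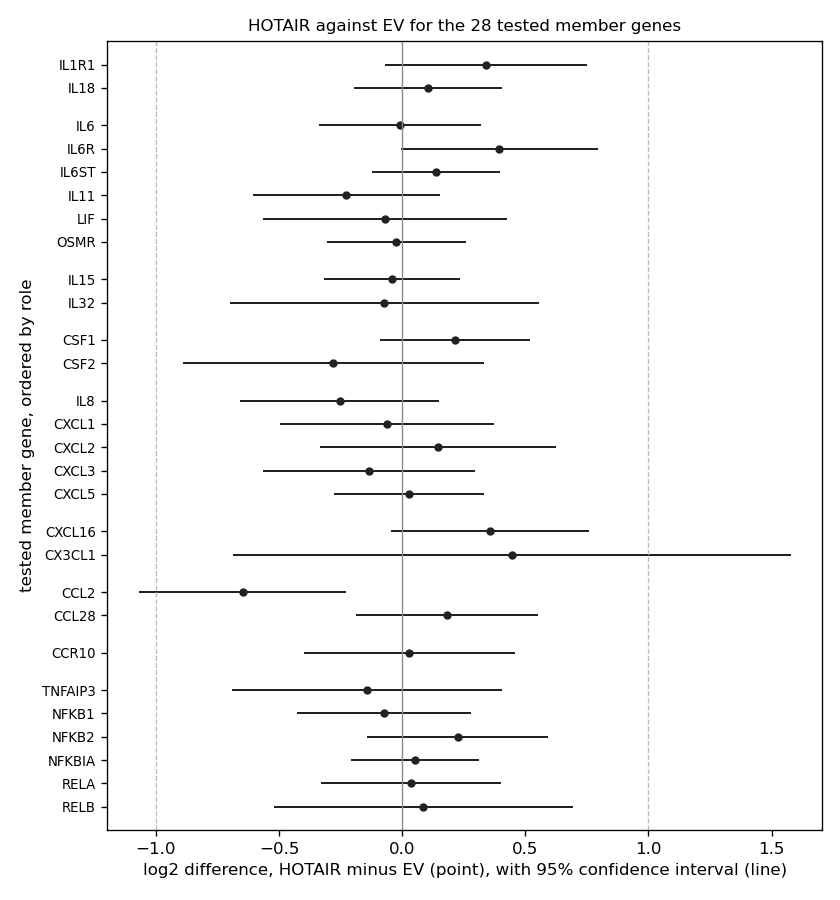
Log2 difference, HOTAIR minus EV, for the 28 tested member genes in order of role. Points are limma estimates, lines their 95% confidence intervals and dashed lines a log2 difference of 1 in either direction. The interval of CCL2 alone excludes 0, and those of CCL2 and CX3CL1 cross a dashed line.

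CCL2, which attracts monocytes through CCR2, had the largest difference of the 28. Its probe lies on chromosome 17 from 32584050 to 32584109 (hg19, plus strand). It stood at -2.83, -2.21, -2.83 and -2.73 on EV 1 to 4 and at -3.31, -3.44 and -3.14 on HOTAIR 1 to 3. Every HOTAIR array lay below every EV array. The log2 difference was -0.65 ± 0.18 (SE), with a 95% confidence interval from -1.07 to -0.23, and it did not pass the adjustment (limma, adjusted p = 0.476). An exact two-sided permutation test over the 35 splits of the arrays gave p = 0.0286, the smallest it allows. In a rank product order of all 20419 tested probes, the ranking that the study used, it took place 79 from the lower end. The highest EV value is that of EV 2. Without EV 2 the difference was -0.50, and without EV 2 and HOTAIR 3 it was -0.58. With limma's array weights, which give arrays that stand apart less say, it was -0.58 with an adjusted p of 0.0334. Over the alternatives its adjusted p ran from 0.0334 to 1 and its difference from -0.73 to -0.32. CCR2 itself was well above background on none of the arrays.

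The other CC chemokine tested was CCL28, known from mucosal epithelia. It stood at -2.23, -1.68, -2.04 and -1.81 on the EV arrays and at -1.72, -1.90 and -1.65 on the HOTAIR arrays, and the groups overlapped. Its difference was 0.18 ± 0.16 (SE), or 0.27 without EV 2. CCR10, its receptor and the only chemokine receptor of the list that was measured, stood at -1.001, -1.41, -1.13 and -1.36 with EV and at -0.98, -1.03 and -1.57 with HOTAIR. The groups overlapped, with HOTAIR 3 the lowest and HOTAIR 1 the highest of all arrays, and the difference was 0.03 ± 0.18.

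The neutrophil-attracting chemokines of chromosome 4 were present in both groups, with differences that did not pass. The probe that represents CXCL1 (chromosome 4, 74736850 to 74736909, hg19) read 5.11, 4.74, 5.41 and 5.29 on the EV arrays and 4.90, 5.28 and 5.06 on the HOTAIR arrays. That is far above the 75th percentile of each array, and the difference was -0.06 ± 0.18 (SE), with a 95% confidence interval from -0.49 to 0.37. A separate CXCL1 probe gave -0.01. CXCL2 read 2.97, 2.57, 3.25 and 3.18 with EV and 2.86, 3.14 and 3.42 with HOTAIR. The lowest value was again EV 2, the difference was 0.15 ± 0.20, and its other probe gave 0.14. Without EV 2 and HOTAIR 3 the CXCL2 difference turned to -0.13, so it has no settled direction.

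IL8 (CXCL8 by its current name), the best known attractant of neutrophils, read -2.68, -3.13, -2.41 and -2.76 on the EV arrays and -2.93, -3.05 and -3.02 on the HOTAIR arrays. The HOTAIR values fell inside the EV range, and the difference was -0.25 ± 0.17. Without EV 2 it was -0.38, and with array weights -0.49 (limma, adjusted p = 0.0933). CXCL3 and CXCL5 differed by -0.14 and 0.03. The receptors of these chemokines, CXCR1 and CXCR2, were likewise well above background on none of them. CXCL1 and CXCL2 are close relatives. Their 60-base probes matched at no more than 32 of 60 bases, with a longest shared run of 8 bases. No probe was compared with the other gene's transcript, so whether their signals are distinct was not tested.

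**Figure D3:**
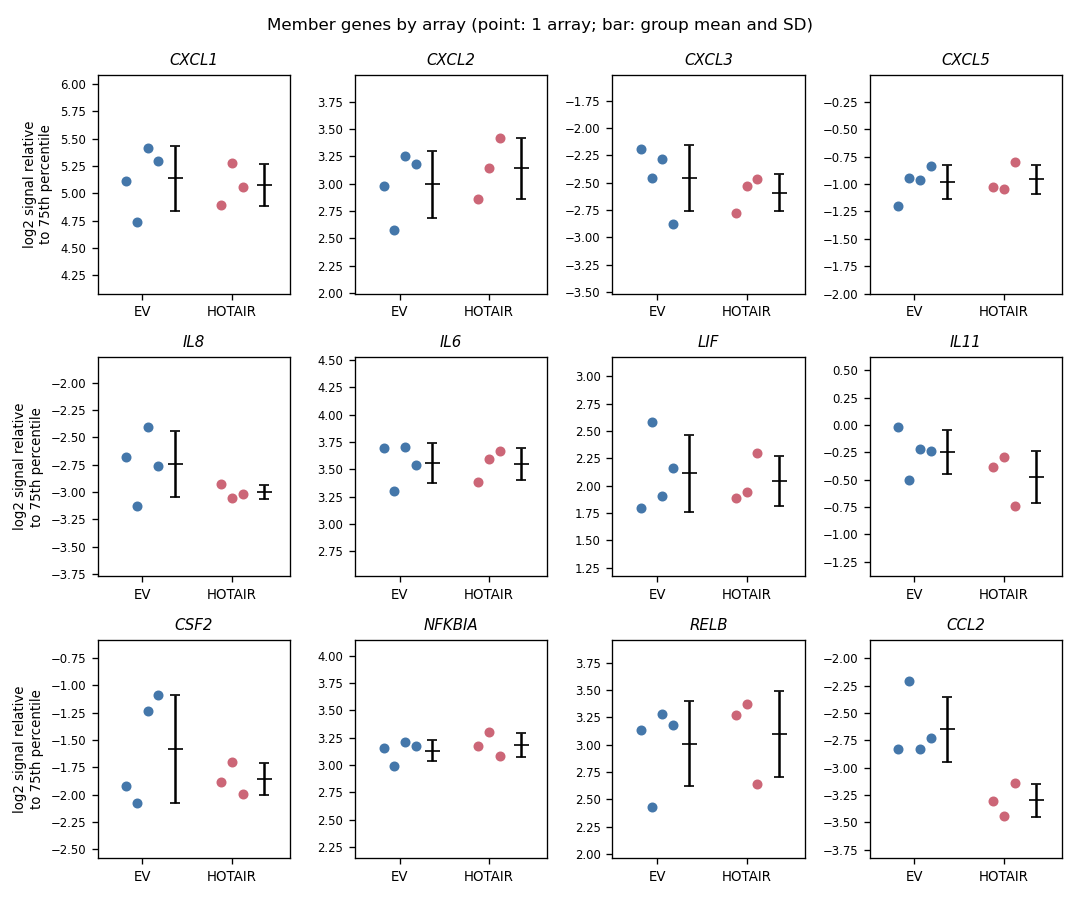
Levels of 12 member genes by array, as log2 intensity relative to the 75th percentile of the array. Each point is 1 array (4 EV in blue, 3 HOTAIR in red), bars give the group mean and SD, and every panel spans at least 2 log2 units. The groups overlap in every panel except CCL2, and RELB shows EV 2 and HOTAIR 3 below the other arrays of their groups.

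CXCL16 and CX3CL1, chemokines that are made as membrane proteins and shed, had positive differences that did not pass. CXCL16 stood at -4.06, -4.34, -3.85 and -3.65 with EV and at -3.59, -3.57 and -3.70 with HOTAIR. One HOTAIR array lay inside the EV range, and the difference was 0.36 ± 0.17 (limma, adjusted p = 0.906). A second CXCL16 probe, well above background on 3 EV arrays and no HOTAIR array and so untested, differed by -0.12 in its group means, so the probes disagree in sign. CX3CL1 read -4.48, -6.38, -5.38 and -5.39 on the EV arrays and -4.33, -4.75 and -5.79 on the HOTAIR arrays. Both groups spread widely, and its interval, from -0.68 to 1.57, was the widest of the members. It entered the test through the HOTAIR arrays, and its difference of 0.44 was 0.12 without EV 2 and 0.86 without HOTAIR 3. Their receptors CXCR6 and CX3CR1 were well above background on none of the arrays.

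In the IL-6 family the ligands were measured on all arrays, and none of their differences passed. IL6, an inducer of the acute-phase response, read 3.69, 3.31, 3.70 and 3.54 on the EV arrays and 3.38, 3.60 and 3.67 on the HOTAIR arrays. The groups covered the same range, and the difference was -0.01 ± 0.14 with a 95% confidence interval from -0.33 to 0.31. Without EV 2 and HOTAIR 3 it was -0.15. IL11 stood at -0.02, -0.51, -0.22 and -0.24 with EV and at -0.38, -0.29 and -0.74 with HOTAIR, a difference of -0.23 ± 0.16. Its receptor gene IL11RA entered the test only through the HOTAIR arrays, with a difference of 0.33 ± 0.48. LIF, known for its role in embryo implantation, differed by -0.07 ± 0.21 at its brighter probe, and by 0.087 without EV 2. A second LIF probe, dim and well above background on 3 of 4 EV arrays, entered the test only through the HOTAIR arrays. It gave 0.43 with an unadjusted limma p of 0.0283 and overlapping groups (adjusted p = 0.753), so the LIF probes differ in sign.

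Among the receptors of this family, IL6R, which binds IL-6 itself, read -3.38, -3.97, -3.83 and -3.64 on the EV arrays and -3.10, -3.49 and -3.34 on the HOTAIR arrays. The lowest HOTAIR value lay below the highest EV value, and the difference was 0.39 ± 0.17 (limma, adjusted p = 0.859). IL6ST, the signal-transducing chain, differed by 0.14 ± 0.11 at its brightest probe, and its other 5 probes gave between -0.14 and 0.18. The array's annotation places 1 of those probes on chromosome 17 and the rest on chromosome 5. OSMR, a partner of IL6ST for oncostatin M, differed by -0.02 ± 0.12.

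For the IL-1 family the measured members were a receptor and a ligand of a related receptor. IL1R1, the signalling receptor of IL-1, was the second gene whose groups did not overlap. Its probe (chromosome 2, 102792046 to 102792105, hg19) stood at -3.39, -4.00, -3.66 and -3.34 on the EV arrays and at -3.34, -3.16 and -3.27 on the HOTAIR arrays. The gap between the groups was under the last digit shown, and the difference was 0.34 ± 0.17 (limma, adjusted p = 0.926). Without EV 2, its lowest array, it was 0.21. IL18, an activator of interferon-gamma production, read 0.27, -0.16, 0.19 and 0.06 with EV and 0.21, 0.20 and 0.17 with HOTAIR. Those HOTAIR values lay within the EV range, and the difference was 0.11 ± 0.13, or 0.023 without EV 2.

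The remaining interleukins had differences near 0. IL32, an inducer of other cytokines, stood at 1.15, 2.18, 1.13 and 1.64 with EV and at 1.42, 1.26 and 1.68 with HOTAIR. EV 2 alone set the top of its range, the difference was -0.07 ± 0.27, and without EV 2 it was 0.14. IL15, a growth factor of T and NK cells, differed by -0.04 ± 0.12.

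Colony-stimulating factors govern the growth of granulocytes and macrophages. CSF2 (GM-CSF) read -1.92, -2.08, -1.23 and -1.08 on the EV arrays and -1.88, -1.70 and -1.99 on the HOTAIR arrays. The EV arrays fell into a low and a high pair, the HOTAIR arrays lay with the low pair, and the difference was -0.28 ± 0.26. Without EV 2 it was -0.45. Of the receptor genes of CSF2, CSF2RA differed by 0.12 ± 0.11 at its brighter probe, and CSF2RB was well above background on none of the arrays. CSF1, the growth factor of macrophages, stood at -2.94, -2.66, -2.81 and -2.81 with EV and at -2.58, -2.79 and -2.41 with HOTAIR. The groups overlapped, with a difference of 0.21 ± 0.13.

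The NF-kB genes were measured throughout, and none of their differences passed. NFKBIA, the inhibitor that NF-kB induces, read 3.15, 2.99, 3.21 and 3.17 on the EV arrays and 3.17, 3.30 and 3.08 on the HOTAIR arrays. Its difference was 0.05 ± 0.11, with a 95% confidence interval from -0.21 to 0.31. NFKB2, the precursor of the p52 subunit, stood at -1.29, -1.65, -1.43 and -1.13 with EV and at -0.97, -1.15 and -1.33 with HOTAIR. Those groups overlapped, with a difference of 0.23 ± 0.16. NFKB1, RELA, RELB and TNFAIP3, the last an inhibitor of the pathway, differed by -0.07, 0.04, 0.09 and -0.14. Without EV 2 these were 0.033, -0.074, -0.11 and 0.0041, so none of the 4 has a settled direction. RELB stood apart on EV 2, at 2.43 against 3.14 to 3.28 on the other EV arrays, and on HOTAIR 3, at 2.64 against 3.27 and 3.37, and without both its difference was 0.12.

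ICAM1, which binds leukocyte integrins, is the third member whose groups did not overlap. It read -5.88, -5.62, -5.69 and -5.71 on the EV arrays and -6.26, -6.70 and -6.54 on the HOTAIR arrays. It was well above background on none of the arrays, so it was not tested and no fold is given. Of the probes left untested, 3.91% did not overlap between the groups.

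Companion genes of the same pathways, 90 in all, were read from the same fit. The 26 relay genes between receptor and NF-kB or STAT3 were all well above background on all 7 arrays, as were 20 of 26 other NF-kB-responsive genes. Of the 19 cytokine receptors and related genes 8 were, and of the 19 chemokine receptors 4, beside the 45.1% of all gene names. Those 4 chemokine receptors were CCR6, CCRL1, CXCR3 and XCR1. None of the 61 tested companion genes passed an adjusted p of 0.05 by limma, which 0.18% of all tested genes did, and at an unadjusted p under 0.05 stood 5 higher and 4 lower, 14.8% of the 61 against 6.11% of all tested genes. Among genes well above background on all 7 arrays it was 7 of 58 (12.1%), against 5.48% of all such genes. These shares are descriptions of lists chosen with earlier results known. Not overlapping were 5 higher and 3 lower, beside 4.43% and 3.62% of all genes. The median log2 difference of the 61 was 0.042.

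The receptors held the companion differences of largest size. CSF1R, the receptor of CSF1 (chromosome 5, 149432861 to 149432920, hg19), read -3.95, -4.45, -4.04 and -4.02 on the EV arrays and -3.03, -3.02 and -3.21 on the HOTAIR arrays. All HOTAIR arrays lay well above all EV arrays, and the log2 difference was 1.03 ± 0.15 (limma, adjusted p = 0.070). Without EV 2, the lowest array, it was 0.92 with an adjusted p of 0.0467, and with array weights 0.99 with an adjusted p of 0.00181. CSF1R is also a macrophage marker. Of the 10 leukocyte markers 3 were well above background on all 7 arrays (CD14, CD68 and CSF1R) and 4 on none. Their summed linear level relative to the 75th percentile ran from 1.44 to 1.63 on the EV arrays and from 1.56 to 1.70 on the HOTAIR arrays. Without CSF1R it ran from 1.38 to 1.57 and from 1.44 to 1.58, and the part of these markers in the CSF1R difference was not tested.

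IL18R1, the receptor of IL-18, stood at -3.98, -3.67, -3.67 and -3.75 on the EV arrays and at -3.10, -3.11 and -3.23 on the HOTAIR arrays. Again the groups did not overlap, with a difference of 0.62 ± 0.12 (limma, adjusted p = 0.162). With array weights it was 0.63 with an adjusted p of 0.0186. A second, dimmer IL18R1 probe was well above background on 2 EV arrays and entered the test only through the HOTAIR arrays. It gave 0.46 with overlapping groups. IL18RAP, the partner chain, was well above background on 3 EV and 2 HOTAIR arrays and was not tested.

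IL1R2, a decoy receptor that binds IL-1 without signalling, was well above background on no EV array and on all 3 HOTAIR arrays. It read -5.70, -5.75, -7.51 and -5.65 with EV and -3.90, -4.11 and -4.45 with HOTAIR. It thus entered the test only through the group where it is high. It was at least 2.12-fold higher on the HOTAIR arrays and did not pass the adjustment (limma, adjusted p = 0.282). EV 3 was the lowest array, and without it the log2 difference was 1.55. IL1RAP, the chain that IL1R1 needs to signal, stood at -2.002, -2.32, -2.08 and -2.21 with EV and at -2.57, -2.43 and -2.60 with HOTAIR. Its groups did not overlap, with a difference of -0.38 ± 0.12 (limma, adjusted p = 0.612).

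CCRL1, a chemokine receptor known as a scavenger, differed by 0.76 ± 0.26 with overlapping groups (limma, adjusted p = 0.694), and by 1.01 with array weights, with an adjusted p of 0.0121. CCRL1 was chosen after its values were seen. The array's annotation places its probe on chromosome 6, and whether the probe reads this gene alone was not tested. With normexp background correction, which adds an offset of 50 to every intensity, the differences of the dim receptor probes shrank, to 0.39 for CSF1R, 0.25 for IL18R1 and 0.44 for IL1R2, none of them passing the adjustment. It also shrank the largest positive differences of the members, to 0.034 for IL1R1, 0.059 for CX3CL1, 0.18 for IL6R and 0.16 for CXCL16, and the negative difference of CCL2 to -0.32.

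**Figure D4:**
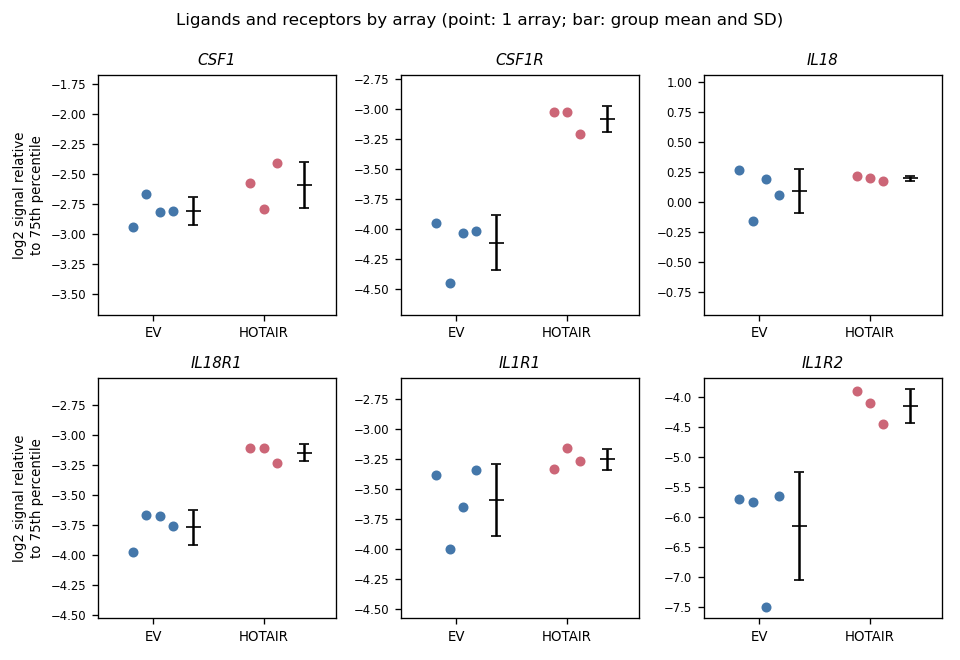
Levels by array of 3 ligand or receptor members (CSF1, IL18, IL1R1) beside the receptors CSF1R, IL18R1 and IL1R2, as log2 intensity relative to the 75th percentile of the array. Each point is 1 array, bars give the group mean and SD, and each panel has its own scale. CSF1R, IL18R1 and IL1R2 lie higher on every HOTAIR array than on any EV array, and CSF1 and IL18 overlap.

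Among the relay and responsive genes, PTX3, a secreted pattern-recognition protein, differed by 0.35 ± 0.12, CYLD, a deubiquitinase that restrains NF-kB, by -0.47 ± 0.16, and IRAK4, a kinase of the IL-1 receptor relay, by -0.28 ± 0.11. Their groups did not overlap and none passed, with adjusted p-values by limma of 0.688, 0.694 and 0.814.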

How the data were processed

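RNA of ACHN cells (EV, 4 arrays; HOTAIR, 3 arrays) was hybridized to 1-colour Agilent SurePrint G3 arrays. All lay on 1 slide, with each group in its own row, so that row and group cannot be told apart. Per array, the authors deposited Feature Extraction 10.7.3.1 output with a processed intensity per spot, background-subtracted and unscaled. A value table repeats these intensities.

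The log2 intensity minus each array's 75th percentile over non-control spots was computed from the deposited files. Outlier spots were left out, spots of a probe were averaged, and the brightest tested probe stood for a gene. Probes that all EV or all HOTAIR arrays called well above background, in at least 0.5 of their spots, were tested with limma 3.58.1 in R 4.3.3, with Benjamini-Hochberg adjustment over all of them. For a probe well above background in 1 group only, the bound on the fold takes for each array of the other group its own value or, if higher, that of the dimmest spot called well above background. The comparison was also run on simulated data. No outcome of that run is given here, so no conclusion about these arrays is drawn from it. The rank product served as an order only. The number of arrays limits the precision.

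The members, the gene lists and the tests were chosen with earlier results of these data known. Named in full are members that were called or did not overlap, the 12 largest differences and the brightest member of each role, and companions with an unadjusted p under 0.05 that did not overlap or that are receptors of a named member. RELB, LIF and the other members outside this rule are given by their differences. Promoters came from the RefSeq table of GRCh38.p14, and probe positions are on hg19. How to treat genes with several listed starts was decided after the motif counts had been seen. Keeping 1 start per gene had first been used, and since the choice of start moved the count, every listed start was counted instead. Promoters of CCL2, CCL5, CCR10, CSF1, CSF3, CX3CL1, CXCL16, CXCR7, IL15, IL18, LIF and RELB were not analysed here.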

Additional observations from a re-analysis of the deposited data

Results flagged for a closer look

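Of 35 genes examined over the 4 EV arrays, 4 had 1 array whose gap to the nearest other, as a share of the whole range, passed Dixon's 95% critical value, where chance gives about 1.75. CCL2 was high on EV 2, at -2.21 against -2.83 to -2.73 on the others, with a ratio of 0.833. RELB was low on EV 2, at 2.43 against 3.14 to 3.28, with a ratio of 0.831. CSF1R was low on EV 2, at -4.45 against -4.04 to -3.95, with a ratio of 0.831. IL1R2 was low on EV 3, at -7.51 against -5.75 to -5.65, with a ratio of 0.941.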

How the results depend on the processing

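The median difference of the member genes moved by less than the spread between arrays (SD 0.102) under every alternative tried, from -0.021 without EV 2 and HOTAIR 3 to 0.071 for the deposited table without scaling. The number of probes called across the array was 34, and it was 12 with normexp, 14 with no filter on dim probes, 22 with probes well above background on all arrays, 20 with trend and robust moderation and 324 with array weights, and 9 to 30 with 1 array left out. With the replicate number as a block, limma called 0 probes, with 1073 at an unadjusted p under 0.05. The labels give the arrays only a number. Same-numbered arrays correlated at 0.386, -0.368 and -0.406 in their deviations from the group means. Such deviations sum to 0 within a group and were widest on EV 2, so they cannot show whether arrays are paired. The block leaves EV 4 without a partner, so its differences equal those without EV 4, and it turned CCR10 to -0.015. Array weights called 1 member probe, CCL2 (-0.58), and 4 companion genes, CSF1R (0.99), IL18R1 (0.63), IL1R2 (2.77, tested only through the HOTAIR arrays) and CCRL1 (1.01). Without EV 2, 1 companion gene was called, CSF1R (0.92), and with another array left out 0 were. Member genes that did not overlap numbered 3 with normexp (8.19% of all genes), 3 with no filter (5.98%), 2 to 5 with 1 array left out (10.3% to 21.4%) and 7 without EV 2 and HOTAIR 3 (28.9%), since fewer arrays part more easily. Of the 28 tested member genes, 14 changed sign in at least 1 alternative, all with a difference of at most 0.15 in size, among them LIF, OSMR, NFKB1, RELA, RELB, TNFAIP3, CXCL5 and IL15. CCR10 was -0.015 with normexp and -0.078 to 0.22 with 1 array left out. IL6 was 0.012 with the percentile over detected probes, 0.033 with the deposited table and -0.094 to 0.074 with 1 array left out. NFKBIA ran from -0.0072 to 0.10, CXCL1 from -0.20 to 0.029 and IL32 from -0.21 to 0.14 with 1 array left out. IL32 was 0.032 without EV 2 and HOTAIR 3 and 0.11 with array weights, and CXCL2 was -0.13 and -0.061. The cause was not tested. Taking only the first or the last listed start of a gene, a choice tried after seeing the data, gave 14 or 13 member genes with the NF-kB consensus in place of 15. The Mann-Whitney U test cannot go below an exact p of 0.0571 with these group sizes.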
